A study of Mus musculus with 103 samples.

Results

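Ubiquitin-specific proteases were studied here through the RNA of their genes in mouse macrophages given a bacterial lipid. Genes were taken by name, as symbols made of Usp and a number, with 1 transcript kept per symbol (the one with the highest mean level) and an RPKM of at least 1 required in at least 1 of 6 libraries. RPKM scales the reads of a gene to the length of its transcript and to the reads of the library, so levels of genes of different length can be compared. The table held 56 Usp symbols, and 40 of them passed, among 11260 genes of 24014 that passed the same minimum. Just above the minimum stood Usp11 (highest value 1.08 RPKM, reached in 1 library given the lipid), Usp54 (1.15) and Usp35 (1.48), and just below it Usp27x (0.81), Usp49 (0.55) and Usp2 (0.42). Of the other 13 symbols, Usp43, Usp13 and Usp44 stayed at or below 0.15 RPKM, and Usp9y, Usp26, Usp29, Usp50, Usp51 and the 5 Usp17l genes were listed at 0 in every library.

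The macrophages had been drawn into the peritoneum of male C57BL/6 mice aged 6 to 8 weeks with thioglycollate, collected by lavage, cultured and kept overnight in 0.5% serum. KLA (Kdo2-lipid A, the lipid anchor of bacterial lipopolysaccharide, an agonist of the receptor TLR4) was added at 100 ng/ml for 1, 6, 12 or 24 h. An untreated library served as the control for 1 to 12 h, and a separate untreated library as the control for 24 h. No genetic change was labelled in these libraries, the number of mice behind each was not given, and each condition had 1 library, so nothing below has a replicate check and no p-value is given.

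Ubiquitin is a small protein that is joined to other proteins to mark them for the proteasome, for sorting into vesicles or as a platform for signalling. Ubiquitin-specific proteases are cysteine proteases that take it off again, and they form the largest family of deubiquitinating enzymes. In macrophages the signals from TLR4 and from type I interferon pass through ubiquitin chains on adaptor proteins, and interferon also induces ISG15, a ubiquitin-like protein with its own attachment and removal enzymes.

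The libraries were shallow, with 2205187 to 2674826 reads, so 1 read in a transcript of 1 kb was worth 0.374 to 0.453 RPKM. Counts of reads recovered from the RPKM values gave each ratio of RPKM a 95% interval (exact binomial), which covers counting error only. Of 6 genes chosen to check the response to KLA (Tnf, Il1b, Cxcl10, Ifnb1, Ifit1 and Irf7), 5 to 6 were at least 2-fold higher at each time. The 7 macrophage markers were detected in all 6 libraries, with a summed level of 6224 to 11206 RPKM. Against this, the sums were 5.99 to 12.8 RPKM for 7 B and T lymphocyte markers, 0.311 to 7.23 for 3 eosinophil markers (Prg2 and Epx at 0 throughout), 0.176 to 0.799 for 4 mast cell markers and 0.225 to 0.850 for 3 dendritic cell markers. Higher sums were found for 6 neutrophil markers (39.5 to 123 RPKM) and 5 fibroblast and mesothelial markers (84.7 to 171), which are described further below. Most of the macrophage sum was Lyz2 (3936 to 8848 RPKM) and Cd68 (1530 to 2043), and single macrophage markers went both ways with KLA. At 12 h Fcgr1 was 18.3-fold and Emr1 3.19-fold higher and Itgam 2.07-fold lower, and at 6 h Csf1r was 2.12-fold lower. In bulk RNA, fewer cells of a type and less RNA per cell cannot be told apart.

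The summed RNA of the 40 genes was 345 RPKM in the untreated library for 1 to 12 h and 318 after 1 h of KLA, and stood at 753 after 6 h and 659 after 12 h. It was 412 RPKM in the untreated library for 24 h and 650 after 24 h of KLA. Most of the difference came from Usp18, which held 1.04%, 1.11%, 50.8%, 52.6%, 0.901% and 32.8% of the sum in that order of libraries. Without Usp18 the sums were 342, 315, 371, 312, 408 and 436 RPKM. Usp18 ranked 26, 24 and 31 among the 40 genes in the untreated, 1 h and untreated 24 h libraries and 1 in the libraries at 6, 12 and 24 h of KLA, where Usp25 ranked 2. In the untreated library for 1 to 12 h the most abundant members were Usp4, Usp5 and Usp14.

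**Figure D1:**
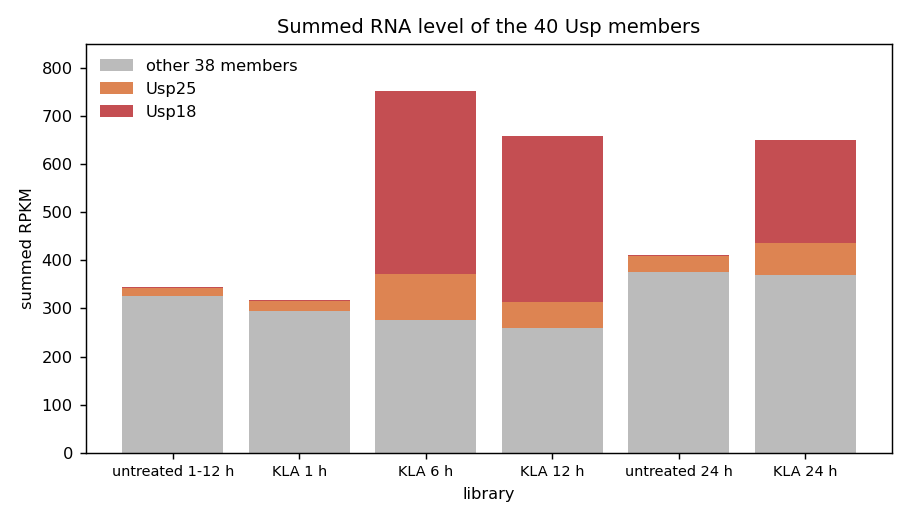
Summed RPKM of the 40 Usp genes in each of the 6 libraries (1 bar per library), split into Usp18, Usp25 and the other genes. The Usp18 part is barely visible in both untreated libraries and at 1 h, and makes up 50.8%, 52.6% and 32.8% of the bars at 6, 12 and 24 h of KLA.

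Changes were measured as the log2 of a ratio of RPKM + 1, a scale on which differences of low genes look smaller than they are, and a gene was counted as higher or lower past 2-fold on that scale. A fold stated for a gene is the ratio of its RPKM values with nothing added. The 1, 6 and 12 h libraries share 1 untreated control, so a deviation of that control enters all 3 comparisons. At 1 h no member was 2-fold higher (3.79% of all genes tested were) and none was 2-fold lower (4.25% of all genes). At 6 h 4 members were 2-fold higher, Usp18, Usp25, Usp12 and Usp42, that is 10% of them against 9.2% of all genes, and 2 were 2-fold lower, Usp20 and Usp48 (5% against 21.7%). At 12 h 2 were higher, Usp18 and Usp25 (5% against 8.64%), and 3 were lower, Usp48, Usp33 and Usp4 (7.5% against 15.9%). At 24 h Usp18 and Usp25 were again the 2 members past 2-fold higher (10.1% of all genes) and none was past 2-fold lower (10.5% of all genes). The share of members that were 2-fold higher was near or below that of all genes at each time. With libraries rescaled to a median log2 ratio of 0 over all genes, the split of higher to lower became 4 to 0 at 6 h and 3 to 0 at 12 h. With the other untreated library as control, 3 members were higher and 4 lower at 6 h, and 1 was higher and 10 were lower at 12 h. The share of all genes was not computed under these alternatives, so these counts cannot be set against it.

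Counting error alone was then read against both untreated libraries, and a member was called only where the interval of its ratio lay on the same side of 1 in both. This called 1 member higher at 1 h, Usp16 (4.5% of all genes), and 3 lower, Usp28, Usp33 and Usp14 (9.64%). At 6 h it called the same 4 members higher (10.9%) and 8 lower (31.9%): Usp20, Usp48, Usp5, Usp14, Usp33, Usp28, Usp4 and Usp6nl. At 12 h Usp18, Usp25 and Usp12 were higher (11.4%) and 16 members, or 40% of them, were lower against 26.5% of all genes. The 16 were Usp48, Usp33, Usp4, Usp32, Usp6nl, Usp1, Usp28, Usp54, Usp40, Usp45, Usp34, Usp24, Usp38, Usp14, Usp9x and Usp8. These calls were not centred on all genes, whose median log2 ratio to the untreated library for 1 to 12 h was -0.311 at 12 h. Usp8 (-0.295) and Usp9x (-0.310) stood next to that median, and the rest of the 16 below it. At 24 h 6 members were higher, Usp18, Usp25, Usp39, Usp42, Usp15 and Usp3 (14.3%), and Usp4 was lower (16.9%).

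The median log2 ratio of the members after 1, 6, 12 and 24 h of KLA was -0.09, -0.24, -0.40 and -0.12. All genes tested had medians of -0.15, -0.44, -0.31 and -0.09. Relative to all genes the members therefore stood 0.06 and 0.20 higher at 1 and 6 h, and at -0.09 and -0.04 at 12 and 24 h. With the other untreated library as control the sign turned at 1, 6 and 24 h, to -0.23, -0.09 and 0.29, and the value at 12 h was -0.30. Within the untreated library and the 1, 6 and 12 h libraries, 18 of 40 members had their highest level without KLA, where 49.7% of all genes had it. The lowest level lay at 12 h for 21 of the 40 members and for 25.5% of all genes. For all genes the lowest level fell most often at 6 h (40.7%), where 9 members had theirs. These ranks set single libraries side by side, and the other untreated library is not among them.

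**Figure D2:**
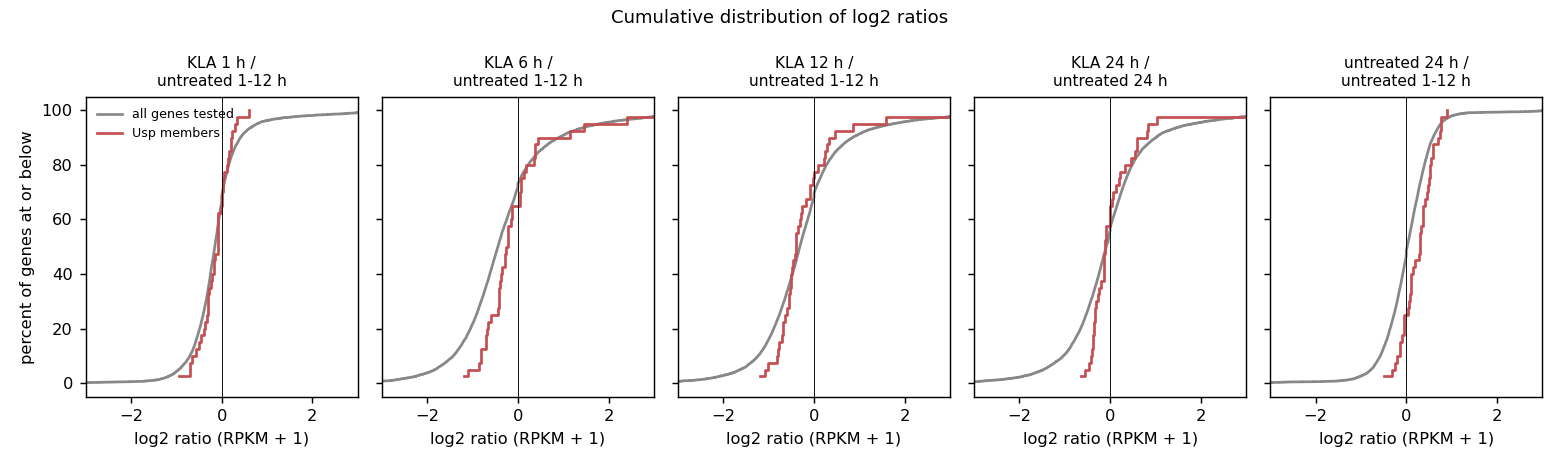
Cumulative percent of genes (vertical axis) at or below each log2 ratio of RPKM + 1 (horizontal axis, shown from -3 to 3), for the 40 Usp genes in red and the 11260 genes tested in grey, in each pair of libraries. The red curve lies right of the grey one through the lower part of the 6 h panel and through most of the panel that compares both untreated libraries. It lies closest in the 1 h panel. At 12 and 24 h the members spread less than all genes. Their lower and upper quartiles were -0.613 and -0.013 against -0.764 and 0.133 at 12 h, and -0.329 and 0.193 against -0.532 and 0.355 at 24 h.

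Usp18 is the member that removes ISG15 from proteins, and its protein also binds the interferon receptor chain IFNAR2 and damps signalling there. Its transcript (NM_011909, chromosome 6, 121195924 to 121220935 on the plus strand, mm9) stood at 3.59 RPKM untreated, 3.53 at 1 h, 382 at 6 h, 347 at 12 h, 3.71 in the untreated library for 24 h and 213 at 24 h. The KLA libraries from 6 h on lay far above the 3 others, and the library at 1 h lay at the untreated level. Usp18 was 107-fold higher at 6 h (95% counting interval 63.3 to 195), 96.7-fold at 12 h (57.5 to 177) and 57.5-fold at 24 h (35.7 to 99.1). These ratios rest on 14 and 17 reads in the untreated libraries and 1605, 1503 and 1010 in the treated ones. Against the untreated library of the other series the folds were 103, 93.5 and 59.5. On the log2 scale its 6 h ratio of 6.38 ranked 32 among the 11260 genes tested, its 12 h ratio 40 and its 24 h ratio 63.

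The genes of the ISG15 attachment pathway were read beside it from a list of 5. Isg15 itself stood at 5.41, 271, 1808 and 2380 RPKM untreated and at 1, 6 and 12 h, and at 6.65 and 1323 RPKM without and with KLA at 24 h. It was thus 50.1-fold higher (26.2 to 110) at 1 h, a time at which Usp18 stood at 3.53 against 3.59 RPKM. Ube2l6, the conjugating enzyme of ISG15, was 2.21-fold higher (1.39 to 3.61) at 1 h and 14.9-fold at 6 h. Uba7, the activating enzyme, and Herc6, the main ISG15 ligase of the mouse, were at 0.647- and 1.13-fold of untreated at 1 h and 14.3- and 25.0-fold higher at 6 h. All 5 genes, with the ligase gene Trim25, were at least 2-fold higher at 6, 12 and 24 h, against 2 of 5 at 1 h. Of the partners of Usp18, Stat2, the interferon signal transducer to which its protein binds, was 12.7-fold higher at 6 h (9.74 to 16.9), and Ifnar2 1.76-fold at 6 h and 3.28-fold at 24 h (2.79 to 3.88).

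**Figure D3:**
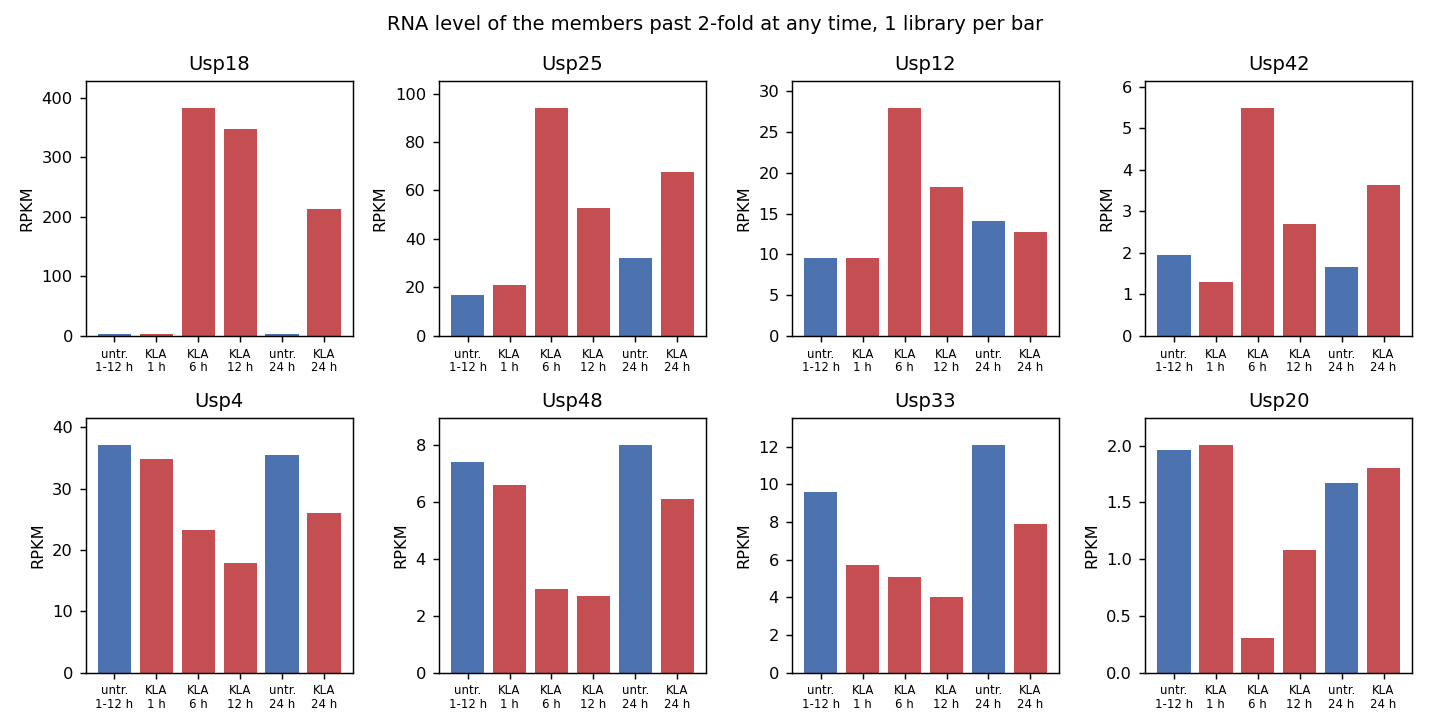
RPKM of each of the 8 members past 2-fold at any time, in the 6 libraries (1 bar per library, blue untreated, red KLA, each panel with its own axis from 0). Usp18 and Usp25 are highest at 6 h and stay above the untreated bars at 12 and 24 h, Usp12 and Usp42 are highest at 6 h, and Usp4, Usp48 and Usp33 are lowest at 12 h.

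Among the 7 measured members tied to innate immune and NF-κB signalling, Usp25 was the 1 past 2-fold higher. Usp25, which takes ubiquitin off TRAF adaptors, had its transcript (NM_013918) on chromosome 16, 77014314 to 77117025, plus strand. Its level was 16.9 RPKM untreated, 21.0 at 1 h, 93.9 at 6 h, 52.7 at 12 h, 32.2 in the untreated library for 24 h and 67.4 at 24 h. The 3 later KLA libraries lay above both untreated ones, and the untreated ones differed from each other by 1.91-fold (1.59 to 2.31). Usp25 was therefore 5.57-fold higher at 6 h (4.72 to 6.61) against its own control and 2.91-fold (2.58 to 3.29) against the untreated library for 24 h. At 12 h the folds were 3.13 (2.62 to 3.74) and 1.64 (1.43 to 1.87), and at 24 h 2.09 (1.85 to 2.37) and, against the library for 1 to 12 h, 4.00 (3.38 to 4.76).

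Usp4, an enzyme acting on TRAF proteins and the TGF-β receptor, was the most abundant member in both untreated libraries. It was listed at 37.1 RPKM untreated, 34.8 at 1 h, 23.2 at 6 h, 17.9 at 12 h, 35.5 untreated for 24 h and 26.1 at 24 h (NM_011678, chromosome 9, 108250162 to 108294860, plus strand). Both untreated libraries and the one at 1 h lay above the 3 later ones. Usp4 was 2.07-fold lower at 12 h (1.70 to 2.52), 1.60-fold lower at 6 h (1.33 to 1.92) and 1.36-fold lower at 24 h (1.15 to 1.61). Usp15, its close paralog, had another order of values, with 22.0, 17.8, 28.7, 22.0, 23.8 and 36.5 RPKM in the same order of libraries. The highest Usp15 value was that at 24 h of KLA, 1.53-fold above its control (1.28 to 1.84). Of the other members of the group, Usp38 stood between 4.62 (12 h) and 10.5 RPKM (untreated 24 h), Usp21 between 4.63 (KLA 24 h) and 7.80 (untreated 24 h), Usp31 between 1.60 and 3.79, and Usp11 between 0.36 and 1.08.

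Of the 5 measured members that act on histones or chromatin, Usp42 was past 2-fold higher, at 6 h. Usp42, a histone H2B and p53 deubiquitinase, stood at 1.94 RPKM untreated, 1.29 at 1 h, 5.48 at 6 h, 2.70 at 12 h, 1.65 untreated for 24 h and 3.63 at 24 h. The values at 6 and 24 h lay above both untreated ones, 2.83-fold (1.73 to 4.81) and 2.20-fold (1.31 to 3.81) above their own controls. These are low levels, with 22 reads in each untreated library and 67 and 50 in those at 6 and 24 h.

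Usp16, a histone H2A deubiquitinase, stood at 15.1 RPKM untreated, 23.4 at 1 h, 11.4 at 6 h, 16.1 at 12 h, 16.7 untreated for 24 h and 18.3 at 24 h. The 1 h library was the highest, 1.55-fold above its control (1.20 to 2.02) and 1.40-fold above the other (1.11 to 1.78), and the 6 h library the lowest. Usp16 overlaps Cct8 on the opposite strand, which reached 80.6 RPKM, and as the use of strand in counting was not stated, reads of both genes cannot be told apart. Usp3, a deubiquitinase of H2A, stood at 10.3, 11.2, 7.47, 12.3, 14.1 and 21.8 RPKM, and was 1.55-fold higher at 24 h (1.16 to 2.07). Usp22, the deubiquitinase of the SAGA coactivator complex, lay between 5.88 RPKM at 6 h and 12.1 in the untreated library for 24 h, and Usp36, a nucleolar enzyme, between 1.19 and 2.34.

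The 9 measured members of DNA repair, p53 and the cell cycle held 1 gene past 2-fold, Usp48, which was lower. Usp48, which acts on histone H2A and on the NF-κB subunit RelA, stood at 7.42 RPKM untreated, 6.60 at 1 h, 2.93 at 6 h, 2.70 at 12 h, 8.01 untreated for 24 h and 6.12 at 24 h. The libraries at 6 and 12 h lay below the 4 others, and were 2.53-fold (1.73 to 3.76) and 2.75-fold (1.86 to 4.11) lower than untreated. Usp28, a regulator of Myc and of p53 signalling, stood at 3.55, 1.38, 1.80, 1.84, 3.39 and 2.66 RPKM and was 2.56-fold lower at 1 h (1.34 to 5.19), from 33 to 14 reads. Usp10, the p53 deubiquitinase found in stress granules, was lowest at 1 h (2.58 RPKM, 1.85-fold below untreated, 1.03 to 3.39) and highest at 12 h (6.95).

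Usp7, the deubiquitinase of MDM2 and p53, stood at 8.77, 10.4, 12.3, 8.66, 13.6 and 15.9 RPKM, with the highest value at 24 h of KLA and the neighbouring one in the untreated library beside it. Mdm2, its substrate gene, was 2.37-fold higher at 1 h (2.05 to 2.75) and 2.51-fold at 24 h (2.22 to 2.86). Usp1, the deubiquitinase of FANCD2 and PCNA, lay between 4.01 RPKM at 12 h and 7.59. Usp47 lay between 8.93 at 12 h and 14.8 at 24 h, Usp24 between 2.35 and 5.72, Usp45 between 1.46 and 5.21 and Usp37 between 1.35 and 2.34. Usp37 overlaps Rqcd1 on the opposite strand (up to 19.4 RPKM), so reads of both genes cannot be told apart.

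Both measured members that serve the proteasome and free ubiquitin chains were lowest at 6 h. Usp5, which takes apart unanchored chains, stood at 35.0 RPKM untreated, 28.1 at 1 h, 19.0 at 6 h, 25.2 at 12 h, 28.0 untreated for 24 h and 23.3 at 24 h. Usp14, the deubiquitinase bound to the proteasome, stood at 27.1, 21.5, 15.0, 20.3, 28.2 and 28.2 RPKM. At 6 h Usp5 was 1.84-fold (1.49 to 2.28) and Usp14 1.80-fold (1.47 to 2.23) lower than untreated. The Usp5 value at 24 h lay 1.20-fold below that of its control, with an interval that includes 1, and the Usp14 values with and without KLA at 24 h were alike to 3 digits. Usp14 overlaps Thoc1 on the opposite strand (up to 8.92 RPKM).

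Of the 7 members of endosomes, the endoplasmic reticulum, the Golgi and mitochondria, Usp33 and Usp20 were past 2-fold lower, at 12 h and at 6 h. Usp33, which acts on β-arrestins and in the secretory pathway, stood at 9.61 RPKM untreated, 5.72 at 1 h, 5.07 at 6 h, 4.03 at 12 h, 12.1 untreated for 24 h and 7.92 at 24 h. Every KLA library lay below both untreated ones, with folds of 1.68 (1.19 to 2.39), 1.89 (1.32 to 2.74), 2.38 (1.63 to 3.54) and 1.53 (1.16 to 2.02) in order of time. Usp20, the paralog of Usp33, stood at 1.96, 2.01, 0.304, 1.08, 1.67 and 1.80 RPKM, and its low value at 6 h is 3 reads against 18 untreated, 6.46-fold lower (1.89 to 34.2). Usp8, which deubiquitinates endosomal receptors, stood at 22.9, 19.7, 19.6, 18.5, 32.0 and 24.7 RPKM. Usp19, anchored in the endoplasmic reticulum, lay between 7.36 (6 h) and 12.8 RPKM (24 h), Usp9x between 4.02 and 9.06, Usp32 between 2.24 and 8.37, and the mitochondrial Usp30 between 2.05 and 4.02, all 3 of them lowest at 12 h and highest in the untreated library for 24 h.

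Usp12 and Usp46 are close paralogs that, like Usp1, need the WD-repeat protein UAF1 (Wdr48) for activity. Usp12 (NM_011669, chromosome 5, 147546388 to 147606532, minus strand) stood at 9.55 RPKM untreated, 9.56 at 1 h, 27.9 at 6 h, 18.3 at 12 h, 14.1 untreated for 24 h and 12.7 at 24 h. Its 6 and 12 h libraries were the highest, and the library at 24 h of KLA lay between the untreated ones. Usp12 was 2.92-fold higher at 6 h (2.30 to 3.75) and 1.91-fold at 12 h (1.48 to 2.48), or 1.98-fold (1.62 to 2.42) and 1.29-fold (1.04 to 1.61) against the other untreated library. Usp46 stood at 3.80, 3.10, 2.61, 2.15, 5.16 and 5.10 RPKM, lowest at 12 h. Wdr48 itself lay between 10.9 and 14.3 RPKM in all 6 libraries.

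A further group held members of RNA processing or listed as lacking protease activity. That name is a label only, as no activity was measured here. In it Usp39, a splicing factor, stood at 13.2, 8.57, 12.1, 16.3, 10.9 and 20.1 RPKM, and was 1.84-fold higher at 24 h (1.35 to 2.54). Usp6nl fits the naming rule but encodes a GTPase-activating protein of Rab5 and no protease, and stood at 4.28, 4.02, 2.53, 2.10, 6.96 and 5.21 RPKM. Usp53 lay between 0.61 and 2.52 RPKM and Usp54 between 0.063 (1 read, at 12 h) and 1.15. Among the remaining members, Usp34 lay between 1.57 and 5.35 RPKM, Usp40 between 1.78 and 4.29 and Usp35 between 0.41 and 1.48, each lowest at 12 h. Usp54 overlaps 1810062O18Rik (up to 2.06 RPKM) and Usp34 overlaps Ahsa2 (up to 7.19), both on the opposite strand, with the same limit on their reads.

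**Figure D4:**
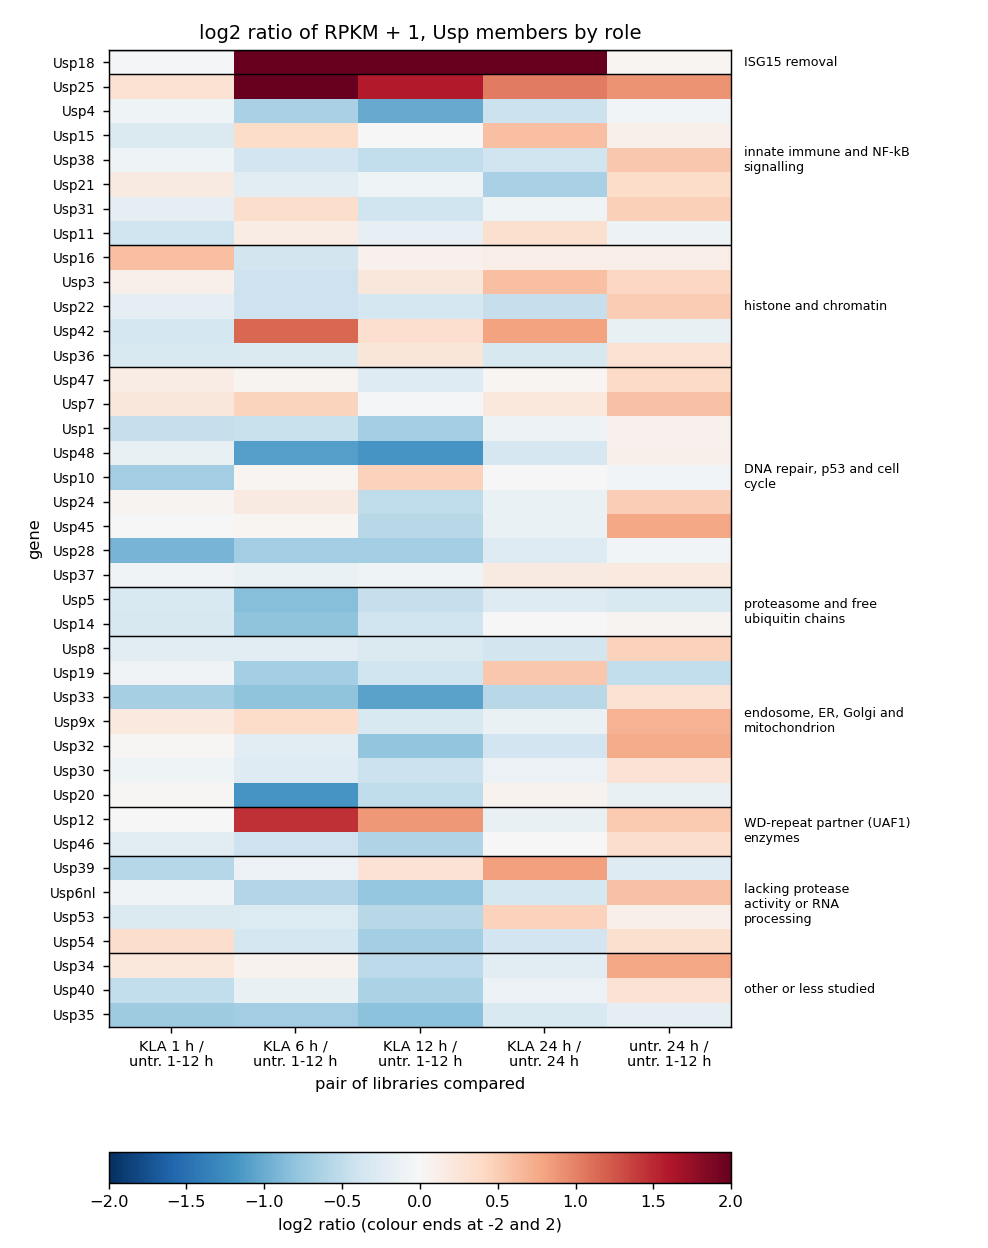
Log2 ratios of RPKM + 1 (colour, red higher, blue lower, ending at -2 and 2) of the 40 members, grouped by role, in 4 comparisons with KLA and in the comparison of both untreated libraries. Usp18 and Usp25 are red from 6 h on, Usp12 and Usp42 are red at 6 h, most other rows are pale or blue at 12 h, and the last column holds more red than blue.

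The summed neutrophil markers and the summed fibroblast and mesothelial markers were highest at 24 h of KLA. The neutrophil markers (6 of 7 in the table) summed to 39.5, 43.3, 51.7, 80.0, 45.5 and 123 RPKM, nearly all of it S100a8. Mpo was at 0 and S100a9, Ngp and Retnlg were below 1 in every library. Camp stood at 4.78 and 4.38 RPKM at 12 and 24 h of KLA and at 0 in the other libraries. The 5 fibroblast and mesothelial markers summed to 84.7 to 102 RPKM in the other libraries and to 171 at 24 h of KLA, where Dcn stood at 104 and Upk3b at 0. Their part in the higher Usp3, Usp15, Usp39, Usp42 and Usp25 values of that library was not tested.

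The untreated libraries differed from each other for this family. No member was past 2-fold higher (2.08% of all genes) or lower (2.61%) in the untreated library for 24 h against that for 1 to 12 h. By counting error, however, 14 of the 40 members, or 35%, were higher there, against 15.8% of all genes, and 2 were lower, Usp19 and Usp5 (11.7%). The members' median log2 ratio was 0.30 and that of all genes 0.02. Among these 14, the highest log2 ratios were those of Usp25 (1.91-fold), Usp45 (1.98-fold, 1.31 to 3.05), Usp34 (1.97-fold, 1.49 to 2.63) and Usp32 (1.83-fold, 1.37 to 2.46).

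Transcript length moved with that difference. The members' transcripts had a median length of 4246 bases against 2576.5 for all genes tested. Across all genes, the median log2 ratio of the untreated libraries was -0.14 for transcripts under 2500 bases, 0.12 for 2500 to 5000 bases and 0.32 over 5000 bases. The 14 members over 5000 bases had a median of 0.43, with 1 of them below 0, the 22 of middle length 0.11 and the 4 short ones 0.20. At 12 h of KLA the 14 long members had a median of -0.46 and all long genes -0.38, while in the 22 of middle length these were -0.44 and -0.34. The part of length in the members' values was not tested further.

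**Figure D5:**
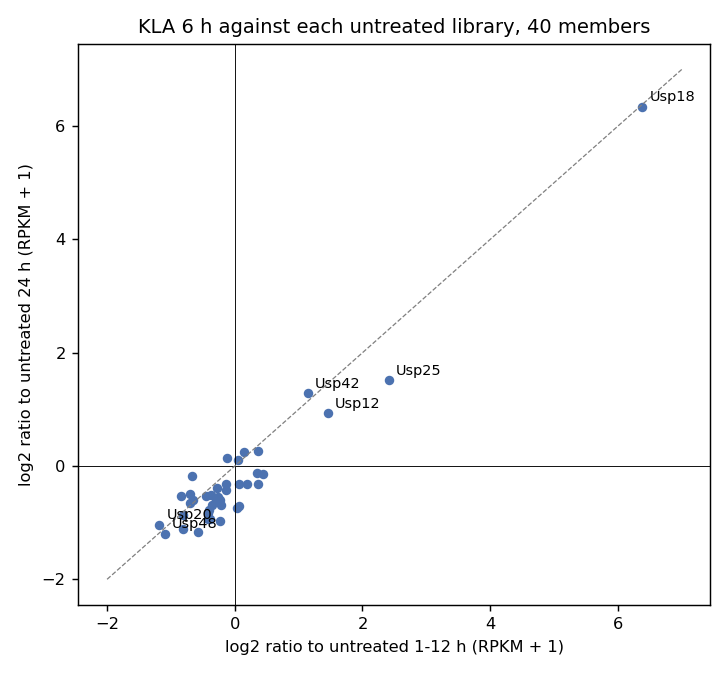
Log2 ratio of RPKM + 1 at 6 h of KLA for each of the 40 members, against the untreated library for 1 to 12 h (horizontal) and against the untreated library for 24 h (vertical), with the line of equal values dashed. Usp18 and Usp42 lie near the line, Usp25 and Usp12 below it (1.51 and 0.94 on the vertical axis), and most other members lie below it as well.

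Promoter sequence, which the naming rule did not use, was read from RefSeq on the build GRCm38.p6, a later build than that of the RNA table. Of the 40 members 30 matched by symbol, with 31 windows of 250 bases before to 50 after a transcript start, and Usp1, Usp14, Usp18, Usp22, Usp33, Usp39, Usp42, Usp5, Usp53 and Usp9x did not. The 250 bases before the start had a median GC content of 65.6% in the members (range 42.0% to 85.2%) and 52.4% in all 32851 windows. Those windows, also used for the motif shares below, were not limited to genes past the RPKM minimum, as the members were. A difference from them is therefore not one from the genes tested. Shown here are the upstream bases of Usp25 and Usp12, the matched members with the largest 6 h ratios, of Usp16, the member higher at 1 h, and of Usp4, the member that led the untreated libraries and was lower later. They read 5′ to 3′ on the strand of the gene and end at the base before the start, with an E-box (CACGTG) in capitals.
Usp25, chr16:77013819-77014068, plus strand, GC 80.0%: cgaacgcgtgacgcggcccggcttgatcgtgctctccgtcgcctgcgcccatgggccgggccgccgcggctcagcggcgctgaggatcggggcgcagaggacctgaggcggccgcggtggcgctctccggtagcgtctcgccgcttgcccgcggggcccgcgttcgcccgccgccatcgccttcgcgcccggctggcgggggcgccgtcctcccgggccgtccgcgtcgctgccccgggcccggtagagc
Usp12, chr5:146794957-146795206, minus strand, GC 74.8%: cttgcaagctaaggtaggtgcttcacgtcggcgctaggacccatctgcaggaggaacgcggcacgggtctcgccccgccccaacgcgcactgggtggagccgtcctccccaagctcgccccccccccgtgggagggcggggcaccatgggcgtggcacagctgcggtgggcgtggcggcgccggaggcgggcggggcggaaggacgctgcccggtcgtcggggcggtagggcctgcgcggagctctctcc
Usp16, chr16:87454735-87454984, plus strand, GC 54.0%: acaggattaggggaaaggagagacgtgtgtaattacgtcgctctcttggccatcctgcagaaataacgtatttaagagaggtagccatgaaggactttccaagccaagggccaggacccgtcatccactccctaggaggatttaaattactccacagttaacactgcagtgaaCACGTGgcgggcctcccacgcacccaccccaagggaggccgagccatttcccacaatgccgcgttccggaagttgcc
Usp4, chr9:108347581-108347830, plus strand, GC 69.2%: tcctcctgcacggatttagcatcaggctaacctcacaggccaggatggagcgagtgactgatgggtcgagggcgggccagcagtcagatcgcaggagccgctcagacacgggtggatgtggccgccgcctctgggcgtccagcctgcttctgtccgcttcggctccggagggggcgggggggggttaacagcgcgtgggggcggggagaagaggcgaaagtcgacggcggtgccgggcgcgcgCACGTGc

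In these windows the E-box lay 77 bases before the start in Usp16 and 7 bases before it in Usp4, and none of the 6 motifs searched lay in those of Usp25 and Usp12. Over the 31 member windows, searched on both strands, the E-box CACGTG was in 5 (16.1%; Usp16, Usp31, Usp32, Usp4 and Usp6nl) against 7.15% of all windows. The AP-1 motif TGANTCA was in 3 (9.68%; Usp10, Usp31 and Usp38) against 7.81%, and the interferon-stimulated response element core GAAANNGAA in 1 (3.23%; Usp11) against 8.56%. The NF-κB consensus (8.46% of all windows), the cAMP response element TGACGTCA (1.79%) and the sterol element-like TCACNCCAC (1.24%) were in none. The E-box and the cAMP response element read the same on both strands, as does AP-1 but for its middle base, so a site counts once per window. A match or its absence describes the letters in these 300 bases and says nothing of binding.

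The series also holds peak lists of SREBP1, the transcription factor of lipid synthesis genes, and of LXR, the oxysterol receptor, from such macrophages given the LXR agonist GW3965 at 1 µM. A SREBP1 peak lay within 1000 bases of the start of 12 of the 40 members (30%) and of 40.1% of all genes tested, and a LXR peak at 19 (47.5%) and 50.6%. Both lay at 9 members (22.5% against 24.8%): Usp1, Usp15, Usp19, Usp36, Usp39, Usp45, Usp5, Usp8 and Usp9x. The members therefore held no more such peaks than other genes did. Of the genes past 2-fold higher after KLA, Usp18, Usp25, Usp12 and Usp42 had neither within 1000 bases, and the nearest LXR peak to the Usp18 start lay 1235 bases inside the gene with a score of 7. The heights given here are the authors' normalised tag counts.

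The highest LXR peak at a member start was that of Usp9x, an X-linked enzyme of endosomal sorting, at chrX:12648120-12648304 (mm9), 412 bases upstream, with 68 tags and 226-fold over input. LXR peaks at Usp15 (353 bases upstream) and Usp45 (685 bases upstream) had 46.7 and 42.7 tags. For SREBP1 the highest were at Usp1, chr4:98590106-98590300, 298 bases upstream with 29.1 tags, and at Usp5, 363 bases downstream with 26.6 tags. Peak centres inside the transcript were found for 13 members with SREBP1 (32.5% against 41% of all genes) and 25 with LXR (62.5% against 51.7%). No list without GW3965 was compared, so these peaks say nothing about a change.

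Genes listed under other deubiquitinase types were read beside the family. Of 12 OTU-type enzymes tested, Tnfaip3 (A20, an inhibitor of NF-κB signalling) was past 2-fold higher at every time, with 15.3 RPKM untreated and 544, 150 and 91.1 at 1, 6 and 12 h, and 13.6 and 95.1 at 24 h without and with KLA. Its 35.6-fold difference at 1 h (30.2 to 42.3) was seen at a time when Usp18 and Usp25 stood at 3.53 and 21.0 RPKM. Vcpip1, a Golgi enzyme, and Otud1 were 2.60-fold (2.05 to 3.33) and 2.22-fold (1.44 to 3.49) higher at 6 h, and Otud6b was past 2-fold lower at 24 h. Of the 2 MINDY-type enzymes, Fam63a was lower at 6, 12 and 24 h, by 4.16-fold at 6 h (3.48 to 4.99, from 96.5 to 23.2 RPKM) and Fam63b at 24 h. The Fam63b call rests on its control, since the gene stood at 8.81 RPKM in the untreated library for 1 to 12 h, 18.9 in that for 24 h and 8.84 at 24 h of KLA.

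Of 5 UCH-type enzymes, Uchl3 was lower at 6 and 12 h and Uchl1 higher at 24 h, and of 3 Josephin-type enzymes Josd1 was lower at 6 h and Atxn3 at 24 h. Both 24 h calls rest on the untreated library used. Uchl1 stood at 4.75 RPKM in the untreated library for 1 to 12 h, 1.35 in that for 24 h and 7.18 with KLA at 24 h, and Atxn3 at 6.77, 14.5 and 6.35 RPKM. Uchl3 stood at 8.79 RPKM untreated, 1.36 at 6 h and 1.76 at 12 h. These low levels gave wide intervals, 6.46-fold (1.885 to 34.2) and 4.99-fold (1.645 to 20.3) lower. A further 11 genes were listed under the JAMM metalloprotease type, a label only, as no activity was measured here. Of these, Psmd7 (12 and 24 h) and Psmd14 (24 h), subunits of the proteasome lid, were higher. Their folds at 24 h were 2.57 (2.14 to 3.11) and 2.25 (1.88 to 2.70). Brcc3 was lower at 1 h (5.86 RPKM against 14.0, with 7.82 in the untreated library for 24 h), Mpnd at 6 h and Eif3f at 12 h. Of Cyld, Uspl1 and Pan2, which carry a ubiquitin-specific protease fold under other names, none was past 2-fold on the log2 scale of RPKM + 1 at any time. Pan2, part of a deadenylase complex, stood at 1.87 RPKM untreated, 0.579 at 6 h and 0.561 at 12 h, and its plain ratios were 3.23-fold (1.23 to 9.93) and 3.33-fold (1.27 to 10.2) lower. Cyld, an inhibitor of NF-κB signalling, stood at 5.83, 4.99, 9.15, 5.71, 7.77 and 8.45 RPKM. Among genes of ubiquitin itself, Rps27a was past 2-fold lower at 1 h and Ubb past 2-fold higher at 24 h. The Rps27a levels were low (4.98 RPKM untreated and 0.508 at 1 h) and the interval of the fold ran from 1.36 to 429. In the untreated library for 24 h Rps27a stood at 1.885 RPKM, so the 1 h call rests on the control. Ubb stood at 72.8 RPKM in the untreated library for 1 to 12 h, 39.8 in that for 24 h and 81.9 at 24 h of KLA, so its call too rests on the control. Of 14 partner genes tested, Stat2 (6, 12 and 24 h), Mdm2 (1, 12 and 24 h) and Ifnar2 (12 and 24 h) were past 2-fold higher.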

How the data were processed

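The authors deposited RNA values as RPKM for 33022 transcripts, with the length of each in bases, per the file headers. The submitters' processing notes name Bowtie 0.12.7, STAR, HOMER and the build mm9 but not the file each was used for. How strand was handled in counting is not given in the sources here. Of 103 labelled samples, 8 were used. Reads per gene were recovered from RPKM, length and the library total at which values came out whole (99.97% within 0.01 read). Genes needed an RPKM of 1 in 1 library, the pseudocount was 1, and intervals are 95% conditional binomial ones, with a floor of 3 reads for a 0.

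Per the file headers, peak height is the authors' signal per 10000000 tags, and fold over input is their ratio. The score of a peak, also deposited, served only to rank peaks. Peaks were called at a false discovery rate of 0.001 and 4-fold over input, giving 13984 SREBP1 peaks from 24395376 tags and 40660 LXR peaks from 7501248 tags. The LXR sample is titled as given GW3965 while its treatment label reads as a control, and its header gives GW3965 for 5 h with input chromatin of cells kept 24 h in KLA. The SREBP1 label gives 18 h and its header a combined set of tags, so no replicate of a peak exists.

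The members, role groups and gene lists were chosen with earlier results of these data known. Part of the list of ubiquitin genes is not reported here. Named with all values were members past 2-fold with an interval excluding 1, the 6 with the highest mean RPKM and those nearest the minimum; others were named by range, or after their values were seen. The interval was also run on simulated counts that held counting error only, as the interval itself assumes. That run could not show how far libraries of 1 condition differ. Alternatives were the pseudocount, filter, scaling, control library, transcript choice, counting interval, peak window and peak score. Python 3.11.15, numpy 2.4.6, pandas 2.3.3, scipy 1.17.1 and matplotlib 3.10.9 were used. Promoter windows are from RefSeq, GRCm38.p6, and no coordinates were converted between builds.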

Additional observations from a re-analysis of the deposited data

How the results depend on the processing

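With 1 library per condition, every value rests on its control library. Of 64 alternative counts of members past 2-fold, 54 stayed within 1.5 times the reported count. Part of these could not move, so their agreement is no check. With a pseudocount of 1, a gene below 1 RPKM in every library cannot pass 2-fold, which fixed the counts without a filter. A minimum of 1 RPKM in 2 libraries removed only Usp11, which was not past 2-fold at any time. The longest transcript could alter the values only of the 8 members with several transcripts. Another 52 alternatives covered 13 single ratios, each already past 2-fold with an interval excluding 1. A change of direction was thus unlikely from the start, and none occurred, but only 38 of the 52 stayed past 2-fold. With the other untreated library, the log2 ratio of Usp12 was 0.936 at 6 h. That of Usp25 was 0.692 at 12 h and 1.939 at 24 h. Ratios outside these 13 were not followed. With the other untreated library as control, the count of lower members was 4 at 6 h and 10 at 12 h. That of higher members was 3 at 6 h and 1 at 12 h. The members' median relative to all genes then became -0.232, -0.086, -0.301 and 0.294 (1, 6, 12 and 24 h), with the sign turned at 1, 6 and 24 h. A pseudocount of 0.1 gave 2 lower members at 1 h and 6 at 12 h. A pseudocount of 3 gave 0 lower members at 6 h and 0 at 12 h, and 1 higher at 24 h. Rescaling to the median of all genes gave 0 lower members at 6 h and 0 at 12 h. For these alternative counts of members the share of all genes was not computed. Without a filter on low values the relative median was -0.033 at 1 h and -0.059 at 6 h, both with the sign turned. Against genes of like transcript length, an alternative chosen after seeing the data, it was 0.111 at 24 h, also with the sign turned. Keeping the LXR peaks with the higher scores, down to the middle of the ranking, left 8 members with a peak (20% against 23.1% of all genes). The cause of these differences was not tested. Usp20, Usp42 and Usp54 rest on few reads, and at this depth a difference within their intervals was not detectable. No paired analysis was possible because each group has 1 library.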
